A study of Mus musculus with 22 samples.

Results

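Total RNA of Arid1a knockout (KO) organoids was compared with total RNA of Arid1a wild type (WT) organoids. The 6 libraries, 3 KO and 3 WT, were chosen by their titles from the 22 libraries of the series. All came from primary mouse bladder urothelial organoids, epithelial cultures grown in 3 dimensions from the lining of the bladder. KO and WT differ, per the labels, in Arid1a alone. The labels name neither the deleted part of the gene, nor the way it was deleted, nor the strain, age or number of the animals. Whether a genotype rests on 1 culture or several is likewise not stated, so each p-value reflects how much these 6 libraries vary, and that variation may be technical.

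The protein made from Arid1a belongs to the BAF (SWI/SNF) complex, which moves nucleosomes and opens enhancers, and its gene is often mutated in bladder cancer. The urothelium is a layered epithelium that seals the bladder, with basal cells that can divide and a surface layer covered by uroplakin plaques. It senses stretch and infection through receptors and channels, and signals to the underlying stroma through secreted ligands such as Sonic hedgehog.

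Total counts ran from 72186166 to 74605489 in the KO libraries and from 66227600 to 72598210 in the WT libraries. Levels are given as CPM (reads per total reads, scaled by TMM, a correction for library makeup) and are comparable between libraries for 1 gene. They are not divided by gene length, so levels of different genes are not compared. Arid1a reads were present in both genotypes, at 93.1, 93.3 and 104 CPM in KO and 140, 157 and 142 CPM in WT libraries (log2 fold change -0.60, SE 0.06, adjusted p = 5.68e-06). Of the 10 urothelial markers checked, all were expressed in every library, 8 were higher and 2 (Epcam and Cdh1) lower in KO. Defining markers of other cells were at or near 0: Col1a2 and Lum of fibroblasts, Kdr and Emcn of endothelium, and Ptprc and Adgre1 of leukocytes had no counts in any of the 6 libraries. Cd68, a lysosomal protein used as a macrophage marker, had 24.4, 22.6 and 21.7 CPM in KO and 11.1, 11.3 and 9.48 CPM in WT libraries. Acta2, smooth muscle actin, had 21.3, 21.8 and 19.9 CPM in KO and 6.65, 5.92 and 6.71 CPM in WT libraries. Both were called higher in KO, as was the neural marker Snap25, and Col1a1, a fibroblast collagen, was called lower, while the other markers of these cell types were under 1 CPM in every library; the part of these genes in the results was not tested. Summed over each list, fibroblast markers came to 1.97 to 2.35 CPM in KO and 3.57 to 4.44 CPM in WT libraries, immune markers to 21.97 to 24.6 CPM in KO and 9.97 to 11.5 CPM in WT libraries, and smooth muscle markers to 19.98 to 21.9 CPM in KO and 5.98 to 6.79 CPM in WT libraries.

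Of 24421 genes in the files, 13198 had enough reads to be tested, and 53.2% of these passed an adjusted p of 0.05 in edgeR's quasi-likelihood test, which is what "called", "rose" and "fell" mean below. A total of 27% were higher and 26.3% lower in KO, and the counts in each gene list are read against these shares. Calls of at least 2 times were rarer, at 6.97% higher and 5.66% lower. The 3 KO libraries did not overlap the 3 WT libraries for 61.1% of tested genes, lying above them for 31% and below them for 30.1%. Many genes named below were chosen partly because their groups do not overlap, so for them that trait is no added support. The median log2 fold change over all tested genes was 0.00259. When the 12 polysome and subpolysome fraction libraries of primary KO and WT organoids were fitted together with the total RNA, this wider fit tested 13787 genes and called 12.8% higher and 14.6% lower in KO total RNA (1770 and 2014 genes). These are the shares to set beside counts from the wider fit, and list counts that this fit moved by more than 1.5 times are given beside the list. A difference in the RNA of such a culture can come from fewer cells of a kind or from less RNA per cell, and these cannot be told apart here.

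**Figure D1:**
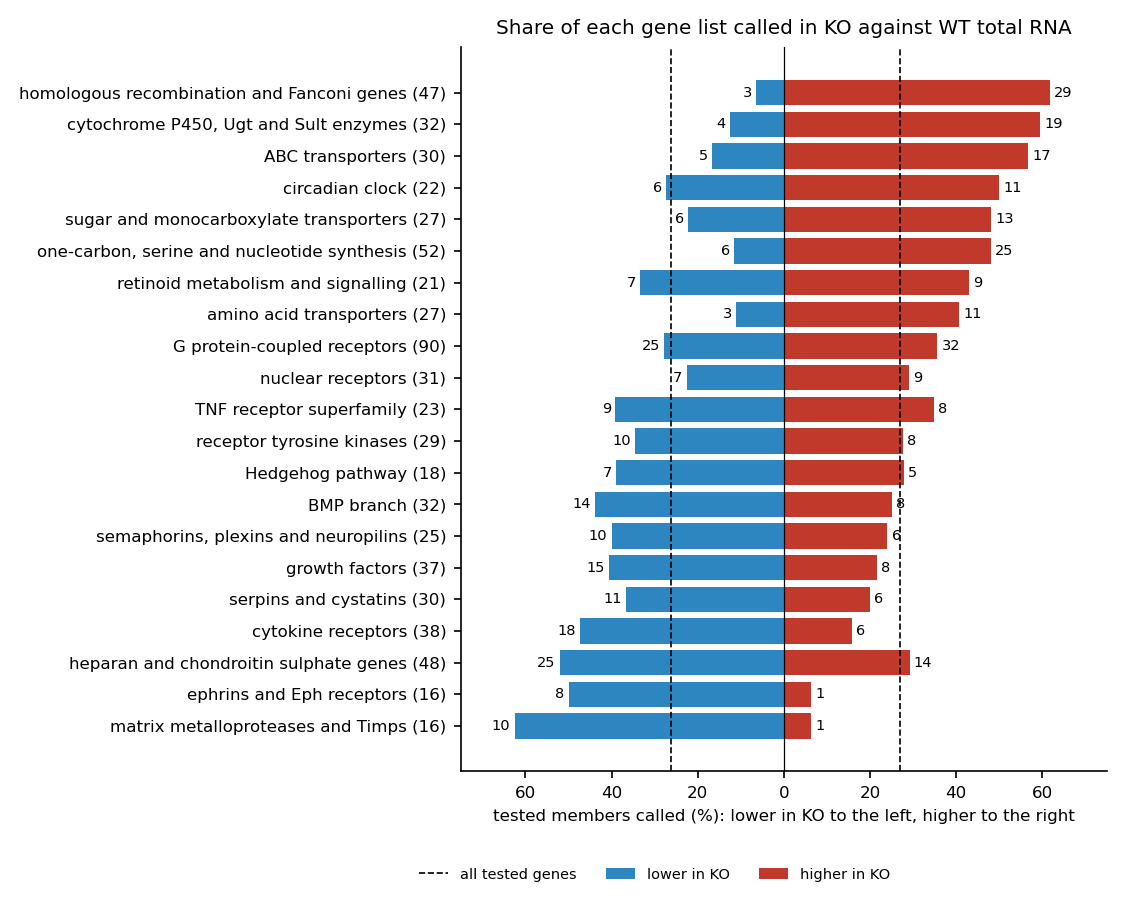
Each bar gives the percent of a gene list's tested members (their number in brackets) called lower in KO, to the left, or higher in KO, to the right, with the count at the bar's end. Dashed lines mark all tested genes, 27% higher and 26.3% lower; homologous recombination genes reach furthest to the right (29 of 47) and matrix metalloproteases furthest to the left (10 of 16).

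Receptors for immune cytokines were called lower in KO organoids more times than higher. Of 38 cytokine receptor genes tested, 18 fell and 6 rose, which is 47.4% lower against 26.3% of all tested genes, and the median log2 fold change was -0.29. Among those that fell were 4 receptors encoded side by side on chromosome 1, in the interleukin-1 receptor cluster. Il18rap, the signalling subunit of the interleukin-18 receptor (chr1:40515362-40551707, GRCm38), had 38.5, 35.3 and 34.2 CPM in KO libraries and 126, 144 and 129 CPM in WT libraries. Every KO library lay below every WT library, with 3.70 times less RNA in KO (log2 -1.89, SE 0.06, adjusted p = 1.50e-09). Its partner Il18r1 (log2 -0.73, SE 0.09), the interleukin-36 receptor Il1rl2 (log2 -1.50, SE 0.15) and the interleukin-33 receptor Il1rl1 (log2 -1.07, SE 0.30) were also lower, all named after their values were seen. Il1rl1 was not called in the wider fit (adjusted p = 0.094). Il1r1, the interleukin-1 receptor within the same cluster, had 12.8, 11.5 and 12.8 CPM in KO and 12.9, 11.8 and 11.7 CPM in WT libraries, groups that overlap, and was not called (log2 0.03, SE 0.08, adjusted p = 0.773).

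Il1rap, the accessory chain shared by the interleukin-1 receptor and its relatives, lies on chromosome 16 and fell as well. It had 3.79, 4.53 and 4.29 CPM in KO and 12.2, 12.7 and 11.8 CPM in WT libraries (log2 -1.54, SE 0.10, adjusted p = 2.11e-07). The type 2 cytokine receptor Il4ra had 23.6, 29.3 and 25.1 CPM in KO and 60.1, 68.9 and 65.2 CPM in WT libraries (log2 -1.32, SE 0.08). Its partner chain Il13ra1 (log2 -0.74, SE 0.08) and the common gamma chain Il2rg (log2 -1.10, SE 0.16) were lower too. Subunits of the interferon receptors were lower as well: Ifngr1 fell by 0.84 on the log2 scale (SE 0.06), Ifngr2 fell by 0.29 (SE 0.04) and Ifnar1 fell by 0.34 (SE 0.05). Il1rap, Il4ra, Il13ra1, Il2rg, Ifngr2 and Ifnar1 were named after their values were seen. In all of them the highest KO library lay below the lowest WT library. Il17rd, a membrane protein that restrains fibroblast growth factor signalling, was among the larger falls (log2 -1.82, SE 0.17, adjusted p = 3.57e-06).

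The 6 cytokine receptors that rose include Il6ra, the interleukin-6 receptor. It had 15.8, 15.5 and 18.5 CPM in KO and 9.16, 5.93 and 6.92 CPM in WT libraries (log2 1.18, SE 0.14, adjusted p = 2.79e-05), while its signalling partner Il6st was not called (log2 -0.05, SE 0.06). Il17re, the receptor of the epithelial cytokine interleukin-17C (log2 0.93, SE 0.06), and Il20rb, a subunit of the interleukin-20 receptor (log2 0.86, SE 0.15), were higher in each KO library; both were named after their values were seen.

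**Figure D2:**
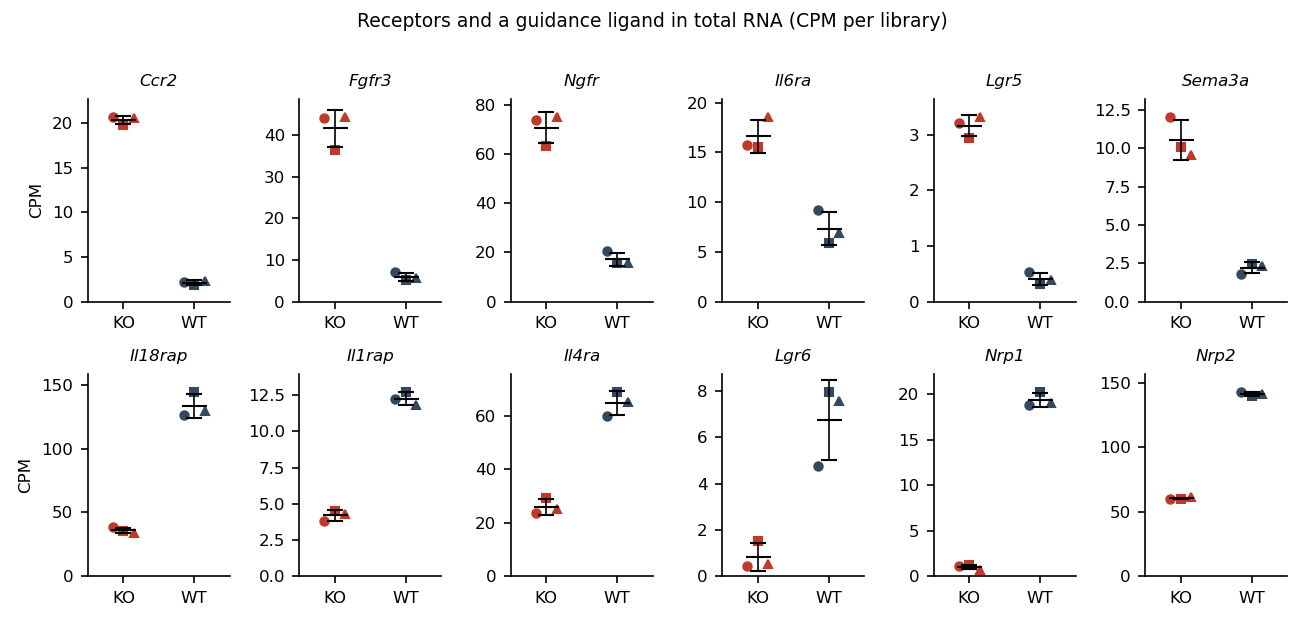
Points are single libraries (circle, square and triangle for replicates 1, 2 and 3) in CPM on linear axes, with KO at left and WT at right, and bars give the mean and SD of 3. The KO libraries lie above all WT libraries for Ccr2, Fgfr3, Ngfr, Il6ra, Lgr5 and Sema3a and below them for the other genes shown, such as Il18rap and Nrp1.

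Growth factor receptors were called higher about as often as genes at large. Of 29 receptor tyrosine kinases tested, 8 rose (27.6% against 27% of all tested genes), or 5 in the wider fit. Another 10 fell (34.5% against 26.3%). Fgfr3, a fibroblast growth factor receptor, stood at 44.2, 36.6 and 44.4 CPM in KO libraries, against 7.03, 5.11 and 5.57 CPM in WT libraries (log2 2.82, SE 0.12). Its relative Fgfr2, named after its value was seen, rose by less (log2 0.77, SE 0.08). Among ErbB receptors Erbb2 rose (log2 0.42, SE 0.05, adjusted p = 1.17e-05), whereas Egfr had 62.98, 65.5 and 65.6 CPM in KO and 66.03, 65.1 and 70.5 CPM in WT libraries and was not called (log2 -0.05, SE 0.05). Met, the receptor of hepatocyte growth factor, was not called either (log2 -0.02, SE 0.05). Ror2, a receptor of Wnt ligands, fell 2.22 times (log2 -1.15, SE 0.07), and the vascular endothelial growth factor receptor Flt1 fell 2.26 times (log2 -1.17, SE 0.14).

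Ephrins and Eph receptors, contact signals between neighbouring cells, leaned downward: 8 of 16 tested fell, 50% against 26.3% of all tested genes. Of the 16, 1 rose (Epha1, named after its value was seen), and the median log2 fold change was -0.22. The ligands Efna3 and Efna4, neighbours on chromosome 3, each fell about as much. Efna4 had 18.4, 18.4 and 18 CPM in KO and 37.9, 37.9 and 36.9 CPM in WT libraries (log2 -1.04, SE 0.05, adjusted p = 3.27e-08), and Efna3 fell by 1.03 on the log2 scale (SE 0.10). The receptors Ephb4 (log2 -0.90, SE 0.06, named after its value was seen) and Epha2 (log2 -0.32, SE 0.05) were lower in every KO library.

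Both neuropilins fell, while the semaphorin Sema3a rose. Nrp1, neuropilin 1, the co-receptor of class 3 semaphorins and vascular endothelial growth factors, had 1.13, 1.24 and 0.726 CPM in KO libraries and 18.8, 20.2 and 19.1 CPM in WT libraries (chr8:128358591-128505476). All KO libraries were far below the WT libraries, with 18.7 times less RNA in KO (log2 -4.23, SE 0.15, adjusted p = 2.15e-09). Nrp2 fell 2.34 times (log2 -1.23, SE 0.04), and Plxnd1, a plexin that pairs with neuropilins, fell 2.23 times (log2 -1.15, SE 0.12; named after its value was seen). Sema3a, a ligand of Nrp1, rose to 12.03, 10.1 and 9.56 CPM in KO libraries, against 1.80, 2.48 and 2.35 CPM in WT libraries (log2 2.26, SE 0.15). Over the family of 25 tested genes 6 rose (24% against 27% of all tested genes) and 10 fell (40% against 26.3%).

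In the TNF receptor superfamily 8 of 23 tested genes rose (34.8% against 27% of all tested genes) and 9 fell (39.1% against 26.3%). Ngfr, the low-affinity neurotrophin receptor, which marks basal cells in several epithelia, had 73.9, 63.5 and 75.1 CPM in KO and 20.4, 15.7 and 15.5 CPM in WT libraries (log2 2.04, SE 0.10, adjusted p = 2.50e-08). Its groups do not overlap. The receptors of the ectodysplasin pathway, which patterns skin appendages, parted: Edar rose (log2 1.45, SE 0.15) and Eda2r fell (log2 -1.09, SE 0.11). Fas, a death receptor, rose (log2 1.14, SE 0.17), while the ligand of another death receptor, Tnfsf10 (TRAIL), had 0.0945, 0.165 and 0.145 CPM in KO and 1.22, 1.32 and 1.65 CPM in WT libraries (log2 -3.36, SE 0.33). Fas and Tnfsf10 were named after their values were seen. Tnf itself fell 2.63 times (log2 -1.39, SE 0.12).

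G protein-coupled receptors had 32 of 90 tested members higher (35.6%, against 27% of all tested genes) and 25 lower (27.8% against 26.3%). Of these, 18 rose and 11 fell at least 2 times, together 32.2% of those tested. Over all tested genes 6.97% rose and 5.66% fell by that much. The chemokine receptor Ccr2, best known from monocytes, had 20.7, 19.9 and 20.6 CPM in KO and 2.19, 1.81 and 2.35 CPM in WT libraries (chr9:124101918-124109140; log2 3.27, SE 0.11, adjusted p = 1.29e-09). The leukocyte markers Ptprc and Adgre1 had no counts in the same libraries. Calcrl, the receptor of calcitonin gene-related peptide and adrenomedullin, had 2.12, 1.76 and 2.39 CPM in KO and 0.0833, 0.0152 and 0.0570 CPM in WT libraries (log2 5.26, SE 0.39). The paired R-spondin receptors Lgr5 and Lgr6, which mark stem cells in other epithelia, moved apart. Lgr5 had 3.21, 2.95 and 3.31 CPM in KO and 0.527, 0.319 and 0.384 CPM in WT libraries (log2 2.93, SE 0.22), whereas Lgr6 had 0.446, 1.54 and 0.515 CPM in KO and 4.77, 7.94 and 7.55 CPM in WT libraries (log2 -3.02, SE 0.37). Their groups do not overlap, though KO library 2 stood highest of the KO libraries for Lgr6. Calcrl, Lgr5 and Lgr6 were named after their values were seen. The serotonin receptor Htr1b (log2 -1.96, SE 0.15) and the orphan receptor Gpr25 (log2 -1.94, SE 0.19) fell, and the nucleotide receptor P2ry2 rose by 0.53 (SE 0.05).

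Downstream of these receptors, Rgs5 and Rgs4, regulators of G protein signalling, were among the deepest falls. Rgs proteins end signalling by speeding the return of G proteins to the inactive state. Rgs5 had 1.20, 1.13 and 0.977 CPM in KO and 15.3, 13.9 and 17.4 CPM in WT libraries (log2 -3.81, SE 0.13, adjusted p = 1.69e-09). Its neighbour on chromosome 1, Rgs4, named after its value was seen, had no counts in any KO library and 2.40, 3.59 and 4.02 CPM in WT libraries. Against a floor of 3 counts per KO library, Rgs4 was at least 82.4-fold lower. Pde4b, a phosphodiesterase that breaks down cyclic AMP, fell 5.55 times (log2 -2.47, SE 0.13), while Pde3b (log2 1.55, SE 0.18) and Pde8a (log2 1.20, SE 0.14), of the same enzyme class, rose. Over the 78 tested genes of adenylyl cyclases, phosphodiesterases and Rgs proteins 24 rose, or 12 in the wider fit, and 27 fell. The main fit's shares were 30.8% higher and 34.6% lower, against 27% and 26.3% of all tested genes.

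Receptor-type tyrosine phosphatases fell in 7 (50% against 26.3% of all tested genes) and rose in 4 (28.6% against 27%) of 14 tested cases. Ptprr, which acts on MAP kinases, stood at 177, 195 and 204 CPM in KO and 26.1, 31.5 and 27.3 CPM in WT libraries (log2 2.76, SE 0.08, adjusted p = 4.85e-10). Ptpru, of a subclass that binds copies of itself on neighbouring cells, moved the other way, with 1.99, 2.04 and 1.95 CPM in KO and 12.7, 14.3 and 12.3 CPM in WT libraries (log2 -2.71, SE 0.11). In both the 3 libraries of a genotype lay close together and far from the other genotype.

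The Hedgehog pathway carries a signal from urothelium to stroma: the secreted ligand binds Ptch1 on receiving cells, with Gas1, Boc and Cdon as co-receptors, and frees Smo to activate the Gli factors. The ligand Shh rose, and on the receiving side Gas1, Boc, Gli2 and Smo fell and Gli3 rose. Shh had 12.2, 13.9 and 13.7 CPM in KO libraries and 0.153, 0.0608 and 0.313 CPM in WT libraries (chr5:28456840-28467101; log2 6.21, SE 0.26, adjusted p = 6.67e-09). Every KO library lay far above every WT library, in which Shh rested on 11, 4 and 22 reads. The co-receptor Gas1 had 0.540, 0.895 and 0.634 CPM in KO and 14.9, 14.8 and 15.3 CPM in WT libraries (log2 -4.44, SE 0.15). Gli2, the main activating Gli factor, had 0.0945, 0.0413 and 0.158 CPM in KO and 2.19, 1.70 and 1.45 CPM in WT libraries (log2 -4.15, SE 0.39; named after its value was seen). Smo fell by 0.31 on the log2 scale (SE 0.04; also named after its value was seen). The co-receptor Boc fell (log2 -0.90, SE 0.14) and Gli3, mainly a repressor, rose (log2 0.35, SE 0.07), both named after their values were seen, and neither was called in the wider fit (adjusted p = 0.0763 for Boc and 0.139 for Gli3). Gli1 and Ptch1, the usual readouts of pathway activity in receiving cells, were not called: Gli1 had 1.40, 1.01 and 1.70 CPM in KO and 1.40, 0.593 and 0.441 CPM in WT libraries (log2 0.75, SE 0.39, adjusted p = 0.125), and Ptch1 had 14.1, 13.6 and 14.2 CPM in KO and 15.2, 17.1 and 14.5 CPM in WT libraries (log2 -0.16, SE 0.08, adjusted p = 0.122). Gli1 overlapped between the groups through WT library 1, without which it was called higher (log2 1.41, adjusted p = 0.00354), while the KO libraries of Ptch1 all lay below the WT libraries by a small margin. Over the pathway 5 of 18 tested genes rose (27.8% against 27% of all tested genes), or 3 in the wider fit. Another 7 fell (38.9% against 26.3%).

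**Figure D3:**
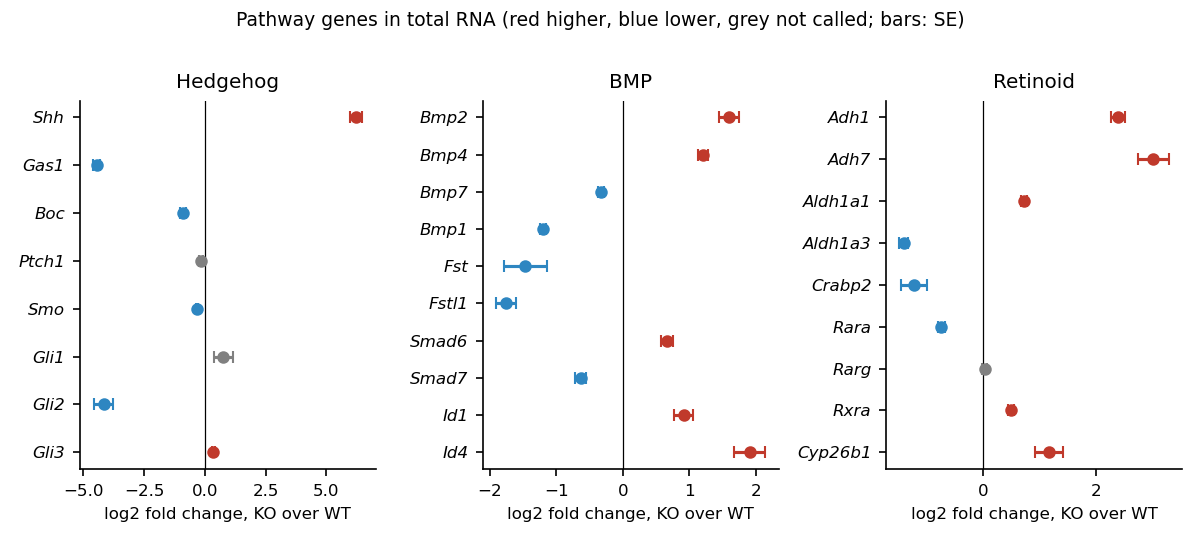
Points give the log2 fold change of KO over WT, bars its SE, with genes called higher in red, called lower in blue and not called in grey; the 3 axes have different ranges. Shh (6.21) and its receiving partners Gas1 (-4.44) and Gli2 (-4.15) lie on opposite sides of 0, as do Bmp2 (1.59) and Fstl1 (-1.75), and Adh1 (2.39) and Aldh1a3 (-1.41).

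In the bone morphogenetic protein (BMP) branch, the ligands Bmp2 and Bmp4 rose and the BMP-binding Fstl1 and Fst fell. Bmp2 had 23.4, 25.04 and 24.9 CPM in KO and 10.7, 6.66 and 6.92 CPM in WT libraries (log2 1.59, SE 0.15, adjusted p = 3.31e-06), and Bmp4, a target of Hedgehog signalling in bladder stroma, had 15.8, 16.3 and 16.6 CPM in KO and 7.19, 6.94 and 6.98 CPM in WT libraries (log2 1.21, SE 0.08). In both genes the KO libraries stood above all WT libraries. Bmp7 fell by 0.33 on the log2 scale (SE 0.04), and Bmp1, a metalloprotease that matures collagens and cuts BMP antagonists, fell 2.29 times (log2 -1.19, SE 0.04). Fstl1, a secreted glycoprotein that binds BMP4, fell 3.36 times (log2 -1.75, SE 0.15). Follistatin, Fst, had 0.230, 0.289 and 0.211 CPM in KO and 0.638, 0.715 and 0.669 CPM in WT libraries (log2 -1.46, SE 0.33), and was not called in the wider fit (adjusted p = 0.209). Among the genes that BMP signals switch on, Id1 had 77.5, 50.9 and 72.5 CPM in KO and 40.8, 30.7 and 34.9 CPM in WT libraries (log2 0.92, SE 0.14). Id4 (log2 1.91, SE 0.23) and the inhibitory Smad6 (log2 0.67, SE 0.09) rose, while the other inhibitory Smad, Smad7, fell by 0.63 (SE 0.08). Id3, another Id gene, was not called (log2 -0.21, adjusted p = 0.334). Fst, Id3, Id4, Smad6 and Smad7 were named after their values were seen. Of the 32 branch members tested 8 rose and 14 fell, a larger share lower (43.8%) than the 26.3% of all genes.

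Genes of retinoid metabolism changed in 76.2% of 21 tested cases, against 53.2% of all tested genes. Of them, 9 were higher and 7 lower, and the median over the list was near 0 (log2 0.02). Retinoic acid is made from retinol by alcohol and then aldehyde dehydrogenases, acts through nuclear receptors, and drives urothelial differentiation. Enzymes of the first step rose: Adh1 had 22.8, 28.3 and 23.1 CPM in KO and 5.30, 3.92 and 4.90 CPM in WT libraries (log2 2.39, SE 0.12, adjusted p = 2.89e-08), and Adh7, the class IV enzyme of stratified epithelia, had 4.93, 3.99 and 5.51 CPM in KO and 0.458, 0.396 and 0.925 CPM in WT libraries (log2 3.01, SE 0.27). The groups are apart in both. At the second step the enzymes split, since Aldh1a1 rose (log2 0.72, SE 0.05) and Aldh1a3, with 82.6, 91.6 and 85.2 CPM in KO and 201, 245 and 244 CPM in WT libraries, fell (log2 -1.41, SE 0.07, adjusted p = 3.42e-08). The retinoic acid carrier Crabp2 fell (log2 -1.23, SE 0.23). Cyp26b1, which degrades retinoic acid, rose by 1.16 (SE 0.25) but was not called in the wider fit (adjusted p = 0.253). Cyp26a1 had no counts in any library. Adh7, Aldh1a1 and Cyp26b1 were named after their values were seen. Of the receptors, Rara fell by 0.74 (SE 0.06), Rxra rose by 0.49 (SE 0.05) and Rarg, with 272, 257 and 271 CPM in KO and 274, 267 and 245 CPM in WT libraries, was not called (log2 0.02, SE 0.05).

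Nuclear receptors as a family followed the background, with 9 of 31 tested higher (29%) and 7 lower (22.6%), or 4 each way in the wider fit. Esr1, estrogen receptor alpha, had 32.7, 33.8 and 34.01 CPM in KO and 16.1, 16.4 and 14.9 CPM in WT libraries (log2 1.08, SE 0.06, adjusted p = 7.12e-08), groups without overlap. Pparg, a receptor that promotes urothelial differentiation, rose 2.34 times (log2 1.23, SE 0.06), and Rxra, its partner on DNA, rose as given above. Vdr, the vitamin D receptor, fell by 0.46 on the log2 scale (SE 0.06). Nr3c1, the glucocorticoid receptor (log2 0.12, SE 0.05, adjusted p = 0.0641), was not called, although its KO libraries lay just above the WT libraries.

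Of 27 tested Grhl, Tfap2, Tead, Runx, Gata and Irf factors 11 rose and 8 fell, or 8 and 5 in the wider fit. Of 19 Klf and Sp factors 6 rose and 3 fell, or 3 and 0 in the wider fit. Of 19 Ets factors 4 rose and 4 fell, or 3 and 2 in the wider fit. In this order the shares higher were 40.7%, 31.6% and 21%, against 27% of all tested genes. Shares lower were 29.6%, 15.8% and 21%, against 26.3%. Grhl3, which drives terminal differentiation of the umbrella layer, had 102, 102 and 96.4 CPM in KO and 58.3, 51.4 and 52.3 CPM in WT libraries (log2 0.89, SE 0.06, adjusted p = 1.34e-07), and Grhl1, named after its value was seen, rose alongside (log2 1.03, SE 0.08). Klf4 (log2 0.91, SE 0.08) and Klf5 (log2 0.49, SE 0.06), regulators of epithelial maturation, Gata3 (log2 0.48, SE 0.06), a luminal factor, and the Ets factors Elf3 (log2 0.34, SE 0.07) and Ehf (log2 0.41, SE 0.04) stood above WT in every KO library. Gata6, another Gata factor (log2 1.17, SE 0.08), and the T-box factor Tbx2 (log2 1.15, SE 0.05) rose by somewhat more. Tfap2a, an epithelial factor, fell by 0.26 on the log2 scale (SE 0.05) but was not called in the wider fit (adjusted p = 0.188). Foxa1, a pioneer factor of the urothelium, had 195, 201 and 208 CPM in KO and 201, 187 and 200 CPM in WT libraries, which overlap, and was not called (log2 0.04, SE 0.04).

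Among the Sox factors 6 of 11 tested fell (54.55% against 26.3% of all tested genes) and 4 rose (36.4% against 27%). Sox11, a factor of progenitor cells in development, had 0.0810, 0.0689 and 0.0264 CPM in KO libraries, 6, 5 and 2 reads, against 12.02, 18.4 and 20.9 CPM in WT libraries. This was the largest fall of the family (log2 -8.15, SE 0.32, adjusted p = 4.78e-09). Sox4, its close relative, had 109, 130 and 108 CPM in KO and 277, 333 and 339 CPM in WT libraries (log2 -1.45, SE 0.09), and Sox9 fell 2.16 times (log2 -1.11, SE 0.07). Sox2 was not called (log2 -0.11, SE 0.07; named after its value was seen), with libraries of both genotypes intermixed. Tead2, a DNA-binding partner of YAP, had 5.32, 5.17 and 4.75 CPM in KO and 19.1, 26.3 and 27.2 CPM in WT libraries (log2 -2.25, SE 0.13), and Runx1 fell by 0.63 on the log2 scale (SE 0.06).

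Homeobox genes numbered 23 higher (32.9% against 27% of all tested genes), or 8 in the wider fit, and 19 lower (27.1% against 26.3%) of 70 tested. Within the Hoxb cluster of chromosome 11, 1 member rose and 5 fell. Hoxb13, the gene at the 5′ end of the cluster, had 21.5, 18.7 and 23.2 CPM in KO and 9.82, 8.88 and 9.07 CPM in WT libraries (log2 1.19, SE 0.09, adjusted p = 7.88e-07). Its neighbour Hoxb9 had 0.284, 0.606 and 0.594 CPM in KO and 2.19, 2.16 and 2.11 CPM in WT libraries (log2 -2.12, SE 0.28), and Hoxb6 (log2 -0.80, SE 0.12) and Hoxb7 (log2 -0.29, SE 0.07) fell as well. Hoxb8 (log2 -0.35) and Hoxb4 (log2 -0.37) were lower too, but not in the wider fit (adjusted p = 0.126 for Hoxb8 and 0.0836 for Hoxb4). Hoxb2, Hoxb3 and Hoxb5 were not called, though Hoxb2 (log2 0.24, adjusted p = 0.0236) and Hoxb3 (log2 -0.25, adjusted p = 0.0304) passed without WT library 1. Of the Hoxb genes, those other than Hoxb13 were named after their values were seen. Outside the cluster Meis2, a Hox cofactor, rose 2.75 times (log2 1.46, SE 0.06).

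Transporter families are set against 27% higher and 26.3% lower over all tested genes. Among amino acid transporters 11 of 27 tested rose (40.7%) and 3 fell (11.1%), or 7 and 1 in the wider fit (median log2 0.27 in the main fit). Among sugar and monocarboxylate transporters 13 of 27 rose (48%) and 6 fell (22.2%), with a median log2 of 0.32. Nucleotide and nucleotide sugar transporters had 7 of 33 tested higher (21.2%) and 11 lower (33.3%), or 3 and 4 in the wider fit. Mitochondrial carriers were near the background, with 12 of 45 tested higher (26.7%) and 14 lower (31.1%), or 6 and 7 in the wider fit. Slc7a11, the cystine importer, had 199, 192 and 205 CPM in KO and 63.2, 46.2 and 49.5 CPM in WT libraries, well apart (log2 1.91, SE 0.09). Its heavy chain Slc3a2 rose by 0.55 (SE 0.05), whereas Slc7a5, the leucine transporter that uses the same chain, was not called (log2 0.20, SE 0.09, adjusted p = 0.0715) unless WT library 1 was left out (log2 0.32, adjusted p = 0.00171). The glutamine transporter Slc1a5 (log2 0.88, SE 0.09) and the arginine transporter Slc7a1 (log2 0.77, SE 0.06), named after their values were seen, rose. Among carriers of monocarboxylates such as lactate, Slc16a11 had 19.2, 21.1 and 20.7 CPM in KO and 7.67, 7.65 and 7.16 CPM in WT libraries (log2 1.44, SE 0.08), Slc16a3 rose 5.14 times at a low level (log2 2.36, SE 0.22), and the glucose transporter Slc2a1 rose 1.55 times (log2 0.63, SE 0.09, adjusted p = 0.000109). Metal transporters stayed closer to WT, with 3 of 22 tested higher (13.6%) and 6 lower (27.3%), 0 of them by 2 times or more. In the wider fit 0 were higher and 3 lower. The zinc importer Slc39a4 fell by 0.59 (SE 0.06).

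ABC transporters, pumps that drive lipids, drugs and ions across membranes, rose more often than genes at large: 17 of 30 tested, or 56.7% against 27%, and 5 fell. In the wider fit 9 rose and 2 fell, and 3 fell without KO library 2, WT library 2 or WT library 3. Cftr, the chloride channel mutated in cystic fibrosis, had 4.25, 4.31 and 3.83 CPM in KO and 0.194, 0.243 and 0.271 CPM in WT libraries (chr6:18170687-18322770; log2 4.12, SE 0.21, adjusted p = 2.58e-08). The organic anion pump Abcc3 had 18.4, 21.01 and 20.7 CPM in KO and 6.20, 7.64 and 7.60 CPM in WT libraries (log2 1.49, SE 0.10). The cholesterol exporter Abcg1 fell, with 2.62, 2.33 and 2.72 CPM in KO and 8.92, 9.29 and 9.01 CPM in WT libraries (log2 -1.83, SE 0.11). Groups were apart in all 3 genes, which for Abcc3 and Abcg1 was a condition of naming them.

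**Figure D4:**
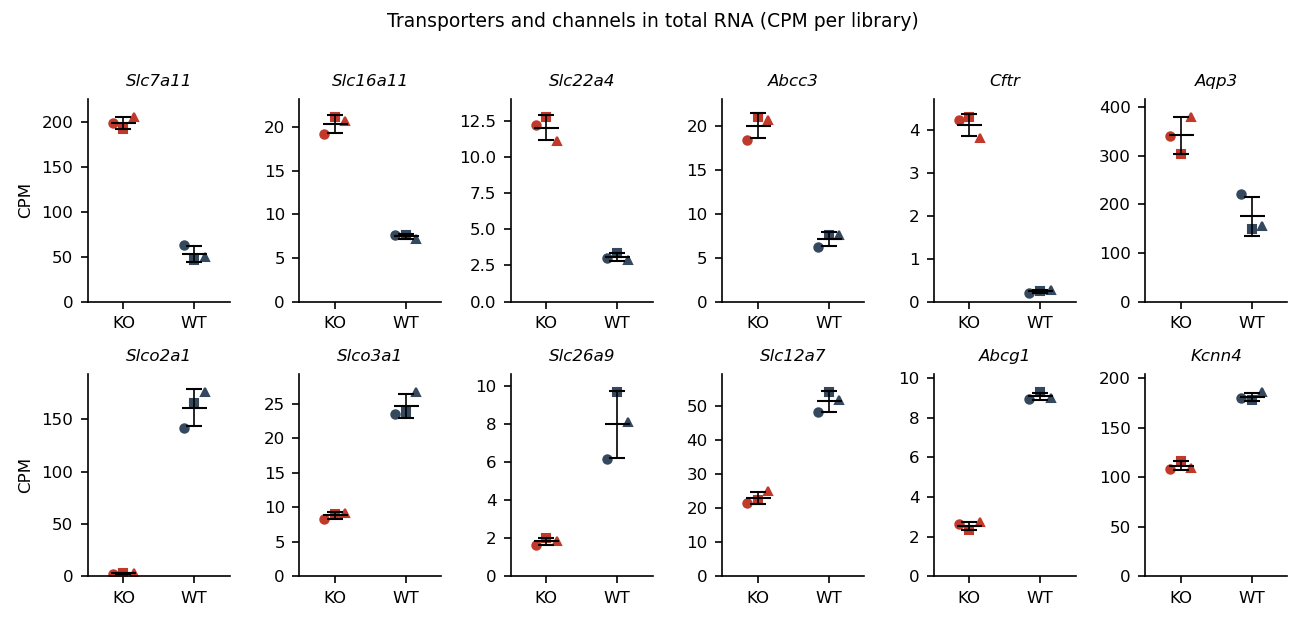
Points are single libraries (circle, square and triangle for replicates 1, 2 and 3) in CPM on linear axes, with KO at left and WT at right, and bars give the mean and SD of 3. Slc7a11, Slc16a11, Slc22a4, Abcc3, Cftr and Aqp3 are higher in all KO libraries, and Slco2a1, Slco3a1, Slc26a9, Slc12a7, Abcg1 and Kcnn4 are lower.

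Carriers of organic ions and vitamins held some of the largest single changes. Slco2a1, the prostaglandin importer, had 2.46, 3.39 and 3.58 CPM in KO and 142, 166 and 176 CPM in WT libraries (log2 -5.68, SE 0.12). Its relative Slco3a1, another transporter of prostaglandins, fell 2.79 times (log2 -1.48, SE 0.08). The carnitine and ergothioneine transporter Slc22a4 (log2 1.97, SE 0.11) and the choline transporter-like protein Slc44a4 (log2 2.02, SE 0.12) rose about 4 times. The thiamine transporter Slc19a3, named after its value was seen, had 2.85, 1.63 and 2.28 CPM in KO and 0.0694, 0.0913 and 0.0854 CPM in WT libraries (log2 4.76, SE 0.35), with no overlap.

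The inorganic ion transporters had 12 of 34 tested higher (35.3% against 27% of all tested genes) and 15 lower (44.1% against 26.3%). Higher members numbered 7 without WT library 2 and 6 in the wider fit. Slc26a9, a chloride channel of epithelia, had 1.65, 2.01 and 1.85 CPM in KO and 6.16, 9.66 and 8.07 CPM in WT libraries (log2 -2.12, SE 0.17), and the potassium chloride exporter Slc12a7 fell 2.24 times (log2 -1.16, SE 0.07). The sodium bicarbonate transporter Slc4a8 (log2 1.79, SE 0.10) and the phosphate importer Slc34a1 (log2 2.05, SE 0.16) rose. Of the pumps, Atp6v0d2, a subunit of the proton pump, rose 4.51 times (log2 2.17, SE 0.10), and Fxyd4, a regulator of the sodium pump, had 33.4, 37.3 and 36.6 CPM in KO and 99.2, 94.1 and 94.4 CPM in WT libraries (log2 -1.42, SE 0.05). The stretch- and heat-gated channel Trpv4 fell by 0.44 (SE 0.06), and the calcium-activated potassium channel Kcnn4 fell by 0.70 (SE 0.04). The water and glycerol channel Aqp3 had 341, 304 and 379 CPM in KO and 220, 149 and 156 CPM in WT libraries (log2 0.96, SE 0.13), and the connexins Gjb6 (log2 1.79, SE 0.17) and Gja1 (log2 0.62, SE 0.11) stood above WT in every KO library.

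Matrix metalloproteases and their inhibitors were lower in KO more often than any other family shown in the plot of list shares. Of 16 tested 10 fell (62.5% against 26.3% of all tested genes), 6 of them at least 2 times. Of the same 16, 1 rose (Mmp28, named after its value was seen), and the median log2 fold change was -0.46. These secreted enzymes cut collagens and other matrix proteins. On chromosome 9, where 10 of the genes lie within 1 cluster, 5 had enough reads to be tested and 4 of these fell. Mmp7 had 1.03, 0.978 and 1.07 CPM in KO and 3.50, 5.42 and 5.25 CPM in WT libraries (log2 -2.20, SE 0.20, adjusted p = 2.68e-06). Mmp10 had 3.01, 3.84 and 3.35 CPM in KO and 8.67, 9.08 and 10.7 CPM in WT libraries (log2 -1.48, SE 0.13, adjusted p = 2.19e-06). Mmp13, the main collagenase of the mouse, had 1.24, 1.64 and 1.06 CPM in KO and 5.02, 3.79 and 4.998 CPM in WT libraries (log2 -1.81, SE 0.19, adjusted p = 1.17e-05). Mmp1b, at 0.243, 0.276 and 0.224 CPM in KO and 0.846, 0.350 and 0.812 CPM in WT libraries (log2 -1.43, SE 0.40, adjusted p = 0.0105), has a close copy in Mmp1a with which it may share reads. In these 4 genes no KO library reached a WT library. Mmp3, between them in the cluster, had 4.40, 3.09 and 4.13 CPM in KO and 5.69, 3.35 and 3.96 CPM in WT libraries, which overlap, and was not called (log2 -0.16, SE 0.20, adjusted p = 0.521). Apart from Mmp10, the genes of this cluster were named after their values were seen.

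The proximal promoters of these 5 genes are shown because they lie together, 4 moved together and 1 did not. The sequences are from RefSeq (GRCm38.p6), 120 bases up to the last base before the annotated start of the gene, read 5′ to 3′ on the gene's strand, with the AP-1 motif TGANTCA in capitals. Its match starts 63 bases before the start in Mmp7 and in Mmp10, 35 in Mmp13, 93 in Mmp1b and 46 in Mmp3.
Mmp7, chr9:7691970-7692089, plus strand: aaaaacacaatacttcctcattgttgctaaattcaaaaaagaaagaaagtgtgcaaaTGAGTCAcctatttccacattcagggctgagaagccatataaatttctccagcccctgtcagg
Mmp10, chr9:7502222-7502341, plus strand: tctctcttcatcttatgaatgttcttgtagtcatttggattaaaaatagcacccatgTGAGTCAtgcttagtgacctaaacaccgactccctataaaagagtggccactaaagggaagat
Mmp13, chr9:7272394-7272513, plus strand: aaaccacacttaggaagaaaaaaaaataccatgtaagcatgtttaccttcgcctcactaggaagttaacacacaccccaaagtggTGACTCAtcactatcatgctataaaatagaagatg
Mmp1b, chr9:7388027-7388146, minus strand: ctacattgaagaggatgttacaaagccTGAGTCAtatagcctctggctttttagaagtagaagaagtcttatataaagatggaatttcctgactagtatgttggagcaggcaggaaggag
Mmp3, chr9:7445702-7445821, plus strand: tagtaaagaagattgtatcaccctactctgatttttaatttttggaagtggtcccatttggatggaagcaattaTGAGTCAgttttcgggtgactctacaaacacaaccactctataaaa
All 5 sequences hold the motif, including that of Mmp3, which was not called, so a match in this window went with both outcomes.

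The motif was then counted in the RefSeq promoter windows of all tested genes, 250 bases before to 50 after the start, on both strands. TGANTCA was present for 14.3% of the 540 genes that fell at least 2 times and had a window (95% Wilson interval 11.6% to 17.5%), for 8.46% of the 697 genes that rose at least 2 times (6.62% to 10.8%) and for 6.77% of all 10480 tested genes with a window. The TEAD motif GGAATG was present for 20% (16.8% to 23.6%), 14.2% (11.8% to 17%) and 14.5% of the same sets. The E-box CACGTG was present for 6.48% (4.70% to 8.88%), 9.47% (7.51% to 11.9%) and 11.7%. Other motifs were counted too. The E2F motifs TTTCCCGC and TTTGGCGC were present for 1.85%, 3.59% and 3.41%, and the CRE TGACGTCA for 2.04%, 3.59% and 3.63%. The GATA motif AGATAA was present for 8.70%, 9.18% and 7.62%, and the STAT motif TTCNNNGAA for 8.70%, 9.61% and 8.31%. The sets differ a little in other ways: the median GC content of their windows was 58.7%, 58.0% and 60.7%, and genes that fell had 1.34 windows each, against 1.20 for genes that rose and 1.27 over all tested genes. The intervals cover counting error only, and a match in a window says nothing on whether a factor binds there.

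**Figure D5:**
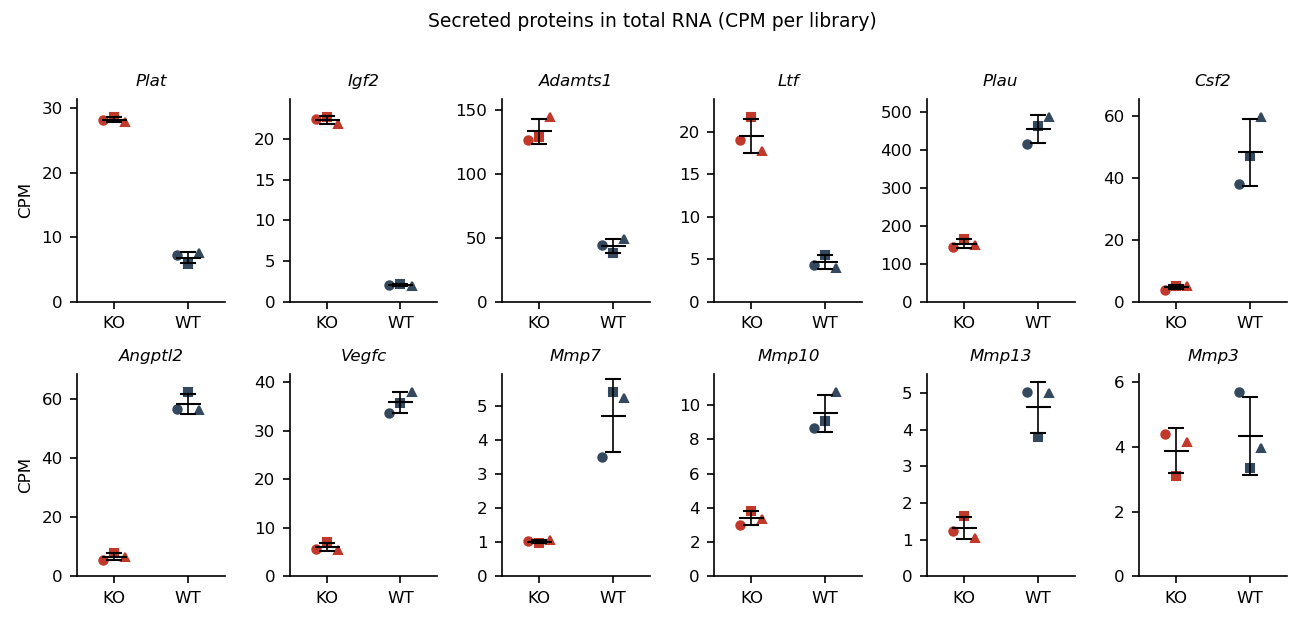
Points are single libraries (circle, square and triangle for replicates 1, 2 and 3) in CPM on linear axes, with KO at left and WT at right, and bars give the mean and SD of 3. Plat, Igf2, Adamts1 and Ltf are higher in all KO libraries, Plau, Csf2, Angptl2, Vegfc, Mmp7, Mmp10 and Mmp13 are lower, and the Mmp3 groups overlap.

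Elsewhere in the family the gelatinase Mmp9 fell 2.08 times (log2 -1.05, SE 0.20), the membrane-bound Mmp14 fell by 0.33 (SE 0.04) and the inhibitor Timp1 fell 2.49 times (log2 -1.32, SE 0.10, adjusted p = 4.95e-07). Both activators of plasminogen changed, in opposite directions. Plat, the tissue-type activator, had 28.2, 28.6 and 27.9 CPM in KO and 7.17, 5.86 and 7.46 CPM in WT libraries (log2 2.05, SE 0.09, adjusted p = 1.02e-08), and Plau, the urokinase-type activator named after its value was seen, had 143, 166 and 149 CPM in KO and 414, 463 and 486 CPM in WT libraries (log2 -1.57, SE 0.07, adjusted p = 8.84e-09). Serpine2, an inhibitor of both enzymes, had 8.80, 8.64 and 8.53 CPM in KO and 64.9, 68.8 and 67.99 CPM in WT libraries (log2 -2.96, SE 0.06). The secreted serine proteases Prss23 (log2 -3.26, SE 0.18) and Prss12 (log2 -2.26, SE 0.11) fell, the membrane-anchored Prss27 rose (log2 1.32, SE 0.10), and Adamts1, a secreted protease that cuts proteoglycans, rose 3.04 times (log2 1.61, SE 0.08), while Adamts7 fell 4.42 times (log2 -2.14, SE 0.14).

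Of 37 growth factor genes tested, 15 fell (40.5% against 26.3% of all tested genes), 9 of them at least 2 times. Another 8 rose (21.6% against 27%), or 5 without KO library 2. Csf2 (GM-CSF), which acts on myeloid cells, had 3.88, 5.15 and 5.04 CPM in KO and 38.1, 47.03 and 59.7 CPM in WT libraries (log2 -3.36, SE 0.16). Vegfc and Pdgfb, ligands for vessels and their supporting cells, fell. Vegfc, a lymphatic growth factor, had 5.67, 7.07 and 5.43 CPM in KO and 33.8, 35.8 and 38.03 CPM in WT libraries (log2 -2.57, SE 0.10, adjusted p = 3.58e-09), and Pdgfb had 32.3, 42.01 and 36.3 CPM in KO and 137, 147 and 149 CPM in WT libraries (log2 -1.97, SE 0.08). Both were named after their values were seen. Angptl2, an angiopoietin-like protein, fell 8.77 times (log2 -3.13, SE 0.10), and Ctgf, a matricellular protein, fell 2.87 times (log2 -1.52, SE 0.24). No KO library of these genes reached a WT library. Vegfa had 162, 146 and 159 CPM in KO and 181, 160 and 170 CPM in WT libraries and was not called (log2 -0.13, SE 0.06, adjusted p = 0.065), although it passed without WT library 2 (adjusted p = 0.0209) and with DESeq2 (adjusted p = 0.0407). Igf2, an imprinted growth factor of fetal tissue, was higher in KO, at 22.5, 22.7 and 21.8 CPM, against 2.08, 2.18 and 1.87 CPM in WT libraries (log2 3.45, SE 0.09).

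Defence proteins went both ways, with 9 of 26 tested higher (34.6% against 27% of all tested genes) and 8 lower (30.8% against 26.3%). Without KO library 2, and in the wider fit, 5 were lower. Ltf, lactoferrin, which binds iron in secretions, had 19.1, 21.7 and 17.8 CPM in KO and 4.32, 5.54 and 3.96 CPM in WT libraries (log2 2.09, SE 0.13, adjusted p = 1.15e-07), and the amidase Pglyrp2, which degrades bacterial peptidoglycan, fell 2.62 times (log2 -1.39, SE 0.13). Pla2g7, a secreted phospholipase that inactivates platelet-activating factor, had 5.70, 7.30 and 4.98 CPM in KO and 41.03, 48.95 and 47.8 CPM in WT libraries (log2 -2.94, SE 0.12). Serpinb10 (log2 2.18, SE 0.12) and Serpinb11 (log2 1.75, SE 0.16) of the serpin cluster on chromosome 1 rose, and Serpinb1a, an inhibitor of neutrophil elastase, fell 6.58 times (log2 -2.72, SE 0.12). Serpinb genes have close copies, so reads may be divided between them with some error.

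Genes that build and modify heparan and chondroitin sulphate changed in 81.2% of 48 tested cases, against 53.2% of all genes, with 25 lower and 14 higher (8 in the wider fit) and a median log2 fold change of -0.27. The hyaluronan synthases parted: Has2 had 3.77, 4.16 and 4.62 CPM in KO and 24.9, 25.8 and 27.1 CPM in WT libraries (log2 -2.63, SE 0.09, adjusted p = 1.69e-09), and Has3, named after its value was seen, had 92.1, 85.96 and 103 CPM in KO and 52.3, 51.2 and 43.8 CPM in WT libraries (log2 0.93, SE 0.08). The groups are apart in both. The sulphotransferase Hs6st2 fell 3.56 times (log2 -1.83, SE 0.13). Also named after their values were seen, the basement membrane proteoglycan Hspg2 fell 3.46 times (log2 -1.79, SE 0.11), and of the syndecans Sdc2 rose (log2 2.16, SE 0.23) and Sdc3 fell (log2 -1.65, SE 0.09).

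Enzymes that modify drugs and lipids leaned upward. Of 32 tested cytochrome P450, Ugt, Sult and epoxide hydrolase genes 19 rose and 4 fell, 12 and 2 of them by at least 2 times. That is 59.4% higher and 12.5% lower, against 27% and 26.3% of all tested genes, and the median log2 fold change was 0.76. Cyp2s1, an epithelial P450, had 84.9, 80.2 and 96.1 CPM in KO and 29.4, 28.5 and 28.2 CPM in WT libraries (log2 1.60, SE 0.07, adjusted p = 6.52e-09). Cyp2b10, in mouse liver the classical target of the xenobiotic receptor CAR, rose 2.76 times (log2 1.46, SE 0.10). Por, the reductase that feeds electrons to P450 enzymes, rose 1.64 times (log2 0.71, SE 0.04; named after its value was seen). Cyp4f16 fell 2.08 times (log2 -1.06, SE 0.10). Cyp2b and Cyp4f genes have close copies and the Ugt1a genes share exons, so their reads cannot be divided with certainty. In sphingolipid metabolism 12 of 35 tested rose (34.3% against 27% of all tested genes), or 7 in the wider fit. Another 10 fell (28.6% against 26.3%). The ceramidase Acer2 had 126, 161 and 131 CPM in KO and 46.1, 38.6 and 37.97 CPM in WT libraries (log2 1.77, SE 0.10). Acox2, a peroxisomal oxidase of bile acid and branched fatty acid chains, had 0.567, 1.01 and 1.08 CPM in KO and 9.82, 16.7 and 16.6 CPM in WT libraries (log2 -4.02, SE 0.25), apart in every library. Over the 55 tested genes of fatty acid oxidation and peroxisomes 21 rose (38.2%) and 8 fell (14.55%), against 27% and 26.3% of all tested genes. In the wider fit 10 rose and 4 fell, and 5 fell without WT library 2 or WT library 3.

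Homologous recombination and Fanconi genes, which repair broken and crosslinked DNA mainly in dividing cells, rose in 29 of 47 tested cases, 61.7% against 27% of all genes, and the median log2 fold change was 0.45. In the wider fit 18 rose. The 3 that fell, Fancc, Rad52 and Mus81, were named after their values were seen and changed by little (log2 -0.23 in Fancc, -0.22 in Rad52 and -0.20 in Mus81). None of the 3 was called in the wider fit (adjusted p = 0.141, 0.0769 and 0.339) or without KO library 2. Of the 3, Mus81 alone was called without KO library 1 and Fancc alone without WT library 3, and 1 lost its call without each of the other libraries. Brca1, a scaffold of repair at broken DNA (log2 1.25, SE 0.16), Fancd2, a Fanconi protein (log2 1.72, SE 0.28), and the checkpoint kinase Chek1 (log2 1.64, SE 0.25) rose. In each of these 3 genes KO library 1 was the highest KO library and WT library 1 the highest WT library, yet no WT library reached a KO library. Cdk1, a marker of dividing cells named after its value was seen, had 51.4, 38.1 and 42.1 CPM in KO and 20.2, 14.1 and 14.5 CPM in WT libraries, with the same library highest in each group, and its part in the repair genes' change was not tested. Genes of one-carbon and nucleotide synthesis rose in 25 of 52 tested cases (48.1% against 27% of all genes) and fell in 6 (11.5% against 26.3%). In the wider fit 12 rose and 2 fell. Tk1, thymidine kinase, had 37.6, 25.8 and 33.02 CPM in KO and 11.5, 6.89 and 7.06 CPM in WT libraries (log2 1.92, SE 0.19).

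Clock genes changed in 77.3% of 22 tested cases, against 53.2% of all tested genes. Of them, 11 were higher (50% against 27%) and 6 lower (27.3%, near the 26.3% of all tested genes). Npas2, an activator of the clock, had 37.6, 36.2 and 43.9 CPM in KO and 18.5, 20.3 and 19.2 CPM in WT libraries (log2 1.02, SE 0.08, adjusted p = 6.95e-07), and Arntl, another activator, rose (log2 0.31, SE 0.07). Repressors of the clock went both ways. Per2 (log2 0.68, SE 0.10) and Nr1d1 (log2 0.16, SE 0.05) rose, though Nr1d1 was not called in the wider fit. Bhlhe41 (log2 -1.03, SE 0.14) and Bhlhe40 (log2 -0.61, SE 0.08, named after its value was seen) fell. The time of harvest is not given in the sources used here, and clock genes vary over the day in many tissues.

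Autophagy genes followed the background of all tested genes, with 13 of 46 higher (28.3% against 27%) and 11 lower (23.9% against 26.3%). Of them 0 changed by 2 times, and the wider fit called 4 each way. Without single libraries 7 were lower (KO library 1 or WT library 3 left out) or 6 (WT library 2 left out). Sqstm1, an autophagy receptor, had 337, 362 and 346 CPM in KO and 355, 364 and 362 CPM in WT libraries (log2 -0.05, SE 0.04). Genes of the tricarboxylic acid cycle were near the background, with 13 of 42 higher (31% against 27%) and 11 lower (26.2% against 26.3%). The wider fit called 6 higher and 3 lower. When single libraries were left out 5 to 10 were lower, the fewest without KO library 3. Zinc finger genes of the Zfp and Zscan series were called in 35.8% of 335 tested cases, against 53.2% of all genes, 53 higher and 67 lower, or 17 and 32 in the wider fit. The lysosomal membrane protein Lamp1 was not called (log2 -0.02, SE 0.04), nor was the pyroptosis effector Gsdmd (log2 0.09, SE 0.06), and Casp1 had no counts in any library.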

How the data were processed

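Total RNA of KO and WT organoids was isolated with a column kit and DNase I and made into 3 Illumina libraries per genotype, per the labels. The deposited files hold raw read counts per gene symbol for 1 library each. Bowtie, HTSeq and the mm10 build are named in the submitters' processing notes; their versions, the gene annotation and the strand setting stay unnamed in these notes, so reads of overlapping and antisense genes cannot be told apart.

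From the counts, genes with enough reads (edgeR's filterByExpr) were tested with edgeR 4.0.16 (quasi-likelihood F test, TMM scaling, R 4.3.3), with Benjamini-Hochberg adjustment over all tested genes and a threshold of 0.05. The SE is the log2 fold change divided by the square root of F. Promoter sequences and coordinates are from RefSeq, GRCm38.p6. Gene lists and members were chosen with earlier results of these data known, and symbol patterns caught a few proteins outside a family, such as Slc9a3r2 and Rnasek. Of 64 lists, the 62 with at least 5 tested members were counted. Genes named are, per list, the 2 highest and the 2 lowest log2 fold changes among called members that changed at least 2 times, averaged 2 or more on the log2 CPM scale and had groups that did not overlap, plus a set named whatever its values; others are said to be named after their values were seen. Alternatives were DESeq2 1.42.0, RLE scaling, no filter, a replicate block, a fit of all 18 primary organoid libraries, and leaving out each library. Results for a few genes are not reported here.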

Additional observations from a re-analysis of the deposited data

How the results depend on the processing

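With all 18 primary organoid libraries in 1 fit, 1770 genes were called higher and 2014 lower in KO, against 3557 and 3468 from the 6 total RNA libraries; 1733 and 1984 of them were shared. The cause was not tested. Calls of at least 2 times moved less, to 774 higher and 675 lower. Other settings stayed near: DESeq2 called 3492 higher and 3517 lower, RLE scaling 3503 and 3533, and no filter 3628 and 3525. Leaving out single libraries gave 3074 to 3430 higher and 3067 to 3335 lower, and 888 to 1010 higher and 722 to 802 lower by at least 2 times. No named gene changed direction while called. Of 124 list counts, 58 moved by more than 1.5 times in the fit of 18 libraries, and at most 7 under any other setting.

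With the replicate number as a block 3532 genes were higher and 3405 lower. Deviations of same-numbered KO and WT libraries correlated weakly over genes, and not always positively (0.145, 0.0368 and -0.0656 for replicates 1, 2 and 3). Not every library correlated best with its own number, so the block is an alternative only. The block moved 1 list count, genes of the tricarboxylic acid cycle lower in KO, to 7 from 11. In each genotype the 3 libraries limit precision, and small changes that miss the threshold are not shown to be absent.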

Other observations

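Tetraspanins, membrane proteins that build uroplakin plaques and organise other receptors, were called in 91.7% of 24 tested cases, against 53.2% of all genes. Of them, 11 were higher and 11 lower in KO (45.8% each, against 27% and 26.3%). Tspan15, a partner of the protease Adam10, had 40.5, 39.6 and 44.3 CPM in KO and 13.8, 11.7 and 10.6 CPM in WT libraries (log2 1.78, SE 0.09). Tspan2 had 2.97, 3.37 and 2.90 CPM in KO and 14.8, 16.7 and 15.9 CPM in WT libraries (log2 -2.36, SE 0.10). Neither gene's groups overlap. Dual-specificity phosphatases and Ras family regulators fell in 30 of 64 tested cases (46.9% against 26.3% of all genes) and rose in 17 (26.6% against 27%). In the wider fit 18 fell and 10 rose. Dusp8, a phosphatase of stress-activated kinases, fell 2.69 times.

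Glycosyltransferases of terminal glycans had 28 of 71 tested members lower (39.4% against 26.3% of all tested genes). Another 24 were higher (33.8% against 27%), or 15 in the wider fit. St3gal3, a sialyltransferase, fell 3.16 times, and Gcnt3, which branches mucin-type glycans, rose 3.63 times. Among apoptosis regulators 17 of 39 fell (43.6% against 26.3% of all tested genes) and 11 rose (28.2% against 27%). In the wider fit 10 fell and 5 rose. The BH3-only protein Bik had 10.1, 10.8 and 10.8 CPM in KO and 1.75, 2.48 and 3.27 CPM in WT libraries (log2 2.08, SE 0.18). By chromosome the share of tested genes higher in KO ran from 17.8% on chromosome 13 to 30.6% on chromosome 19, the share lower from 19.9% on chromosome 17 to 33.2% on chromosome 1, and the median log2 fold change from -0.05 to 0.04. Of the 153 tested genes within 5 Mb of Arid1a, 37 were higher and 36 lower in KO, or 47.7% called, against 53.2% of all tested genes. Xist had 0 to 1 counts per library and the 4 Y-linked genes checked were expressed in all 6 libraries.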
